A study of Homo sapiens with 3 samples.

Results

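MYC, its dimerization partner MAX and 38 genes for the nucleolar assembly of ribosomes were followed in multiple myeloma (MM) and stromal cells grown alone or together. The 40 genes were chosen by symbol, out of 43913 gene symbols in the count tables, and all 40 were listed in each of the 3 libraries. MM.1S is a myeloma cell line with a plasma cell phenotype, and HS-5 is a stromal line derived from human bone marrow. Transcripts were counted by Drop-seq, in which a cell and a barcoded bead share a droplet and each captured RNA molecule carries a unique molecular identifier (UMI). The 3 libraries were a monoculture of MM.1S, a monoculture of HS-5, and a coculture of both lines kept together for 4 h, and the labels name no treatment for any of them. The time of 4 h is that of the labels and methods, while legends of the same study give a shorter one. Each condition being a single library, nothing was tested, and condition and library cannot be told apart.

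Cells with at least 200 genes were kept. Coculture cells were assigned to a line by their UMIs on genes at least 50-fold different between the monocultures (115 MM.1S-specific and 316 HS-5-specific genes), and 112 of 3856 cells with UMIs of both lines (2.90%) were left out as mixed. This left 3947 MM.1S cells in monoculture, 1634 MM.1S cells in coculture, 3732 HS-5 cells in monoculture and 2109 HS-5 cells in coculture. UMIs were summed over each of these 4 groups and scaled to counts per 1000000 UMIs (CPM). The intervals given with a CPM value are exact 95% Poisson intervals and cover counting error only. A log2 ratio was computed after adding 1 CPM to both values. Its interval is the exact 95% interval of the plain ratio of the counts, without the added CPM.

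MYC is a transcription factor that binds DNA as a heterodimer with MAX, and genes of ribosome production are among its best known targets. In the nucleolus, RNA polymerase I transcribes the precursor of the ribosomal RNAs, small nucleolar ribonucleoproteins (snoRNPs) modify it, and assembly factors process it and fold it with ribosomal proteins into the small and the large subunit. In myeloma the MYC gene is often activated by rearrangement, and plasma cells depend on a large supply of ribosomes because they secrete protein.

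The MYC-MAX dimer prefers the E-box CACGTG, which reads the same on both strands. This motif was looked for in RefSeq promoter windows of GRCh38.p14, which run from 250 bases before to 50 bases after the gene start used in that set, and no other motif was looked for. A window was at hand for 31 of the 40 genes and not for MYC, TCOF1, NOP58, NOLC1, RRP12, BOP1, RRS1, RRP1B and DDX18. Of the 31 genes, 16 (51.6%) had the motif in a window. Of the 6826 genes with a window that averaged 10 CPM or more over the 4 groups, 13.7% did. Counted per window, 7.26% of all 35116 windows held it. A gene can have several windows, so the share per window cannot be set directly against the shares per gene. Per gene, 21 of 62 other ribosome assembly genes (33.9%) and 4 of 63 cytosolic ribosomal protein genes (6.35%) had the motif in a window. A match is a string of letters and was not measured as a binding site. The stretches around the motif are shown for the 7 genes with it that were at least 2-fold higher in MM.1S cells in coculture, so that they can be read beside the values given further on, and for RRP9 and UTP4, which hold it and were not higher. Capitals mark the motif. All are 5′ to 3′ on the strand of the gene.
UTP20 (chr12:101280005-101280104, plus strand, the 100 bases before the start): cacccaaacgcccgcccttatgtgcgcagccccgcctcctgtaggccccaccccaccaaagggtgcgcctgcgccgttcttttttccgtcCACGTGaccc
DDX21 (chr10:68956604-68956633, plus strand): ggccgggtgtccCACGTGgtccccggcgac
NOL6 (chr9:33473894-33473923, minus strand): ggcatttccgccCACGTGggaagctatgag
PES1 (chr22:30591880-30591909, minus strand): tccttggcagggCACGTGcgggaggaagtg
NAT10 (chr11:34105602-34105631, plus strand): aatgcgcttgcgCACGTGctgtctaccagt
GAR1 (chr4:109815781-109815810, plus strand): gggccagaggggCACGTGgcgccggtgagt
MRTO4 (chr1:19251807-19251836, plus strand): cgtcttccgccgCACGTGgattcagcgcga
RRP9 (chr3:51941892-51941921, minus strand): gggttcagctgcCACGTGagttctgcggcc
UTP4 (chr16:69132621-69132650, plus strand): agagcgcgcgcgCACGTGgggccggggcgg
In UTP20 the motif begins 10 bases before the start, and the stretch lies outside annotated exons, whereas the other 8 stretches overlap an annotated exon. In DDX21, NAT10, RRP9 and UTP4 it begins 31, 15, 5 and 16 bases before the start used here. In NOL6, PES1, GAR1 and MRTO4 it begins at bases 14, 14, 32 and 15 counted from the start.

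The libraries differed in depth and composition, and these differences accompany every value below. The median was 2201 UMIs per MM.1S cell in monoculture against 670 in coculture, and 971.5 against 957 in HS-5 cells. A count of 3 UMIs, taken as the floor, was worth 0.288 CPM in MM.1S monoculture cells, 2.27 in MM.1S coculture cells, 0.488 in HS-5 monoculture cells and 1.21 in HS-5 coculture cells. The share of UMIs on ribosomal protein genes was 19.1% for MM.1S cells alone and 12.2% for those in coculture, and 7.60% against 8.73% for HS-5 cells. The summed level of 14 plasma cell markers was 48590 and 23446 CPM in MM.1S cells and 227 and 356 CPM in HS-5 cells, and that of 14 stromal markers was 32.8 and 74.8 CPM against 4815 and 4056. Most of the MM.1S sums came from IGLC2 (36552 and 18626 CPM) and IGLC3 (8170 and 1874 CPM). Of 13 plasma cell markers averaging 10 CPM or more, 3 were at least 2-fold higher in MM.1S coculture cells (SDC1, PRDM1 and POU2AF1). At least 2-fold lower were 3 others. Of all genes, 18.9% and 5.80% were. SDC1 went against its line, with 38.1 CPM in MM.1S and 134.6 CPM in HS-5 monoculture cells, and CD27, LUM and TAGLN were below 1 CPM in the line they were listed for. UMIs of the other line's specific genes put the free RNA from that other line at 1.77% in MM.1S and 0.857% in HS-5 coculture cells. Free RNA from a cell's own line was not measured. The libraries shared 39 to 76 cell barcodes in pairs, and 83 barcodes were found in more than 1 library.

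MM.1S cells held more of most ribosome biogenesis transcripts in coculture, and less MYC. Their 40 genes together made up 7978 CPM in monoculture (7924 to 8033) and 13036 CPM in coculture (12842 to 13232), a log2 ratio of 0.71 (0.68 to 0.73). The median log2 ratio over the 40 genes was 0.72, with 35 genes higher and 5 lower, while the median of all 7831 genes averaging 10 CPM or more was 0.24 and 62.0% of them were higher. Relative to that median, 30 genes were above and 10 below, since MAX, IMP4, NOP2, NOLC1 and GNL3 were higher by less than all genes. At least 2-fold higher were 13 of the 40 genes, or 32.5%, where 18.9% of all genes were, and 1 (MYC) was at least 2-fold lower, where 5.80% of all genes were. The excess depended on the scaling, since centring on the median of all genes left 6 of the 40 genes at least 2-fold higher (13.0% of all genes), and leaving ribosomal protein and mitochondrial genes out of the CPM left 8 (15.1% of all genes). All 40 genes passed the minimum level in every comparison.

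HS-5 cells held less of most of the same transcripts in coculture, and somewhat more MYC. Their 40 genes made up 12172 CPM in monoculture (12085 to 12259) and 8858 CPM in coculture (8741 to 8976), a log2 ratio of -0.46 (-0.48 to -0.44). The median over the genes was -0.35, with 8 genes higher and 32 lower, against -0.03 over all 8812 genes, of which 46.8% were higher. None of the 40 was at least 2-fold higher, where 1.19% of all genes were, and 1 (BOP1) was at least 2-fold lower, or 2.5%, which is near the 1.78% of all genes. The changes were thus smaller than in MM.1S cells in size, as they were for all genes, whose middle 50% lay between -0.31 and 0.25 in HS-5 cells and between -0.28 and 0.80 in MM.1S cells.

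**Figure D1:**
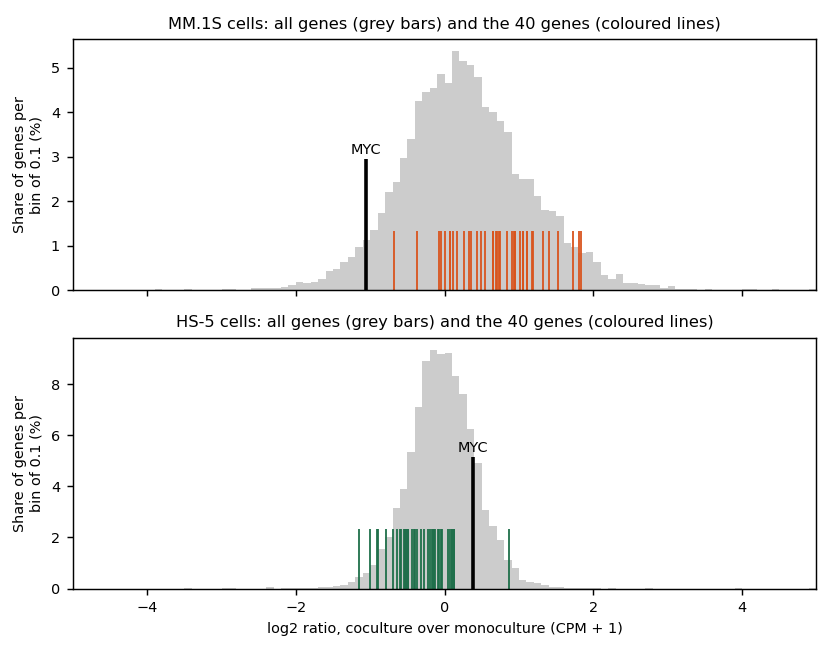
Distribution of the log2 ratio of coculture over monoculture (horizontal axis, from CPM with 1 added) over all genes averaging 10 CPM or more (grey bars, percent of genes per bin of 0.1) and the single values of the 40 genes (coloured lines, height without meaning), for MM.1S cells above and HS-5 cells below. Most of the 40 lines sit right of the grey peak in MM.1S cells (median 0.72 against 0.24) and left of it in HS-5 cells (-0.35 against -0.03), and the longer black line of MYC is on the other side in each (-1.05 and 0.38).

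The 2 lines moved in opposite directions for most of the genes. Of the 40 genes, 30 were higher in MM.1S and lower in HS-5 cells in coculture, 3 (MYC, NHP2 and IMP3) were lower in MM.1S and higher in HS-5 cells, 5 (MAX, POLR1C, NOP16, WDR12 and DDX18) were higher in both, and 2 (UTP4 and RRP9) were lower in both. Relative to the median of all genes in each line these counts were 25, 4, 5 and 6. The ratio in MM.1S was above the ratio in HS-5 for 36 of the 40 genes, by a median of 1.21 on the log2 scale over all 40. The 2 ratios rest on the same coculture library, and the difference between them was not tested. In coculture 62.0% of all genes were higher in MM.1S and 46.8% in HS-5 cells. How many of all genes went in opposite directions was not counted. The counts therefore do not show that this pattern is particular to the 40 genes.

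MYC (chromosome 8, 127735434 to 127741434, plus strand, GRCh38 in GENCODE release 29) was the gene with the largest range over the groups, 7.70-fold from the lowest to the highest. Its level was 788 CPM in MM.1S monoculture cells (771 to 805, 8222 UMIs), 379 CPM in MM.1S coculture cells (347 to 414, 502 UMIs), 101 CPM in HS-5 monoculture cells (93.6 to 109.7, 623 UMIs) and 132 CPM in HS-5 coculture cells (118 to 147, 329 UMIs). The intervals of the 4 levels did not overlap, so that MYC was highest in MM.1S cells alone, and its levels in the 2 lines lay closer together in coculture. The log2 ratio in coculture was -1.05 in MM.1S cells (-1.19 to -0.92), which put MYC lower than all but 5.12% of genes, and 0.38 in HS-5 cells (0.19 to 0.58), at the 83.5th percentile of all genes. Over the alternatives run it lay between -1.29 and -0.94 in MM.1S cells, the latter short of 2-fold and seen with a minimum of 500 genes per cell, and between 0.29 and 0.84 in HS-5 cells. MAX (chromosome 14, 65006174 to 65102695, minus strand), the obligate partner of MYC, differed by no more than counting error among the 4 groups, with 44.3 and 44.6 CPM in MM.1S and 47.9 and 51.4 CPM in HS-5 cells.

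**Figure D2:**
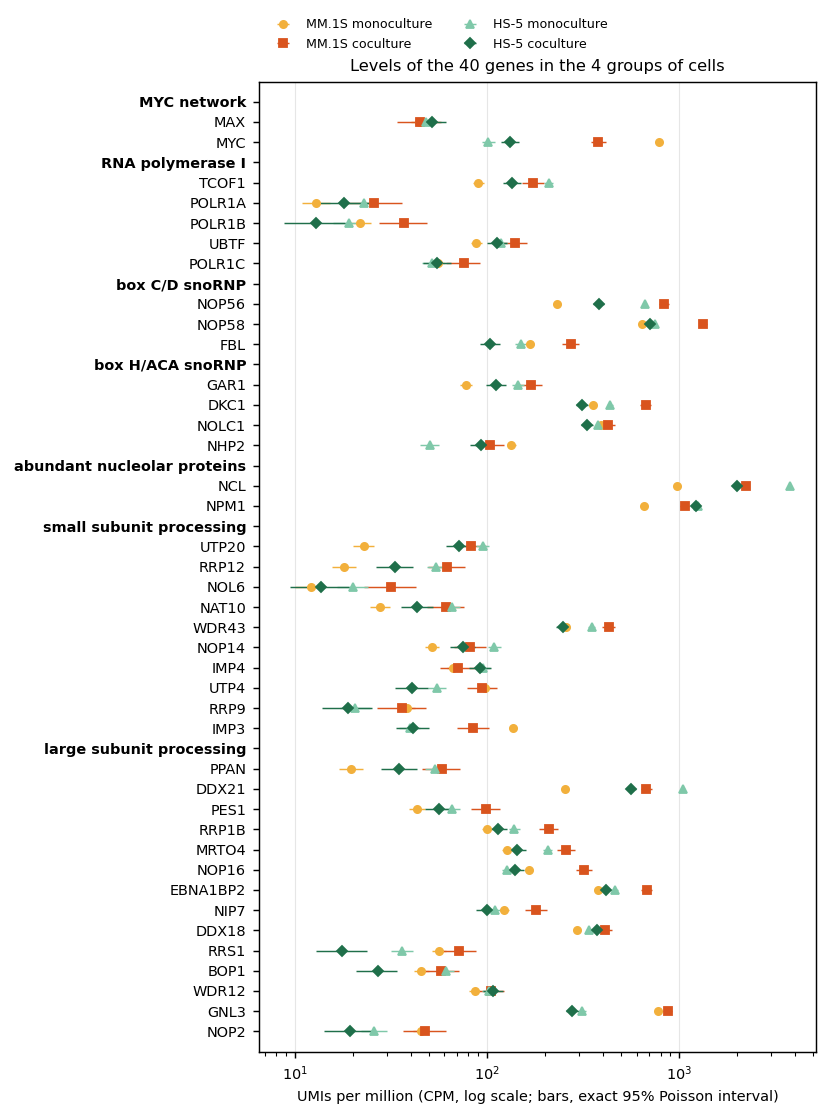
Level of each of the 40 genes in CPM (horizontal log axis) in the 4 groups of cells (colours and shapes as in the legend), with exact 95% Poisson intervals as bars and genes grouped by role. MYC has its highest level in MM.1S monoculture cells (788 CPM), whereas NCL, DDX21 and UTP20 have their lowest there and their highest in HS-5 monoculture cells.

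The 5 genes of the RNA polymerase I machinery were all higher in MM.1S cells in coculture, where 62.0% of all genes were. They were higher by 0.44 to 0.94 on the log2 scale, and none reached 2-fold. TCOF1, which encodes treacle, a nucleolar cofactor of the polymerase, had 90.0 CPM in MM.1S monoculture and 174 in MM.1S coculture cells, and 210 in HS-5 monoculture and 135 in HS-5 coculture cells. It was thus higher in 1 line (0.94, 0.73 to 1.16) and lower in the other (-0.63, -0.81 to -0.46), with no overlap of the intervals within either line. UBTF, the factor that holds ribosomal DNA open for transcription, had 87.9 and 139 CPM in MM.1S cells and 119 and 113 CPM in HS-5 cells, where the intervals overlapped. The subunits POLR1A, POLR1B and POLR1C were counted at 34 to 100 UMIs in MM.1S coculture cells and at 32 to 137 UMIs in HS-5 coculture cells. Their log2 ratios were 0.94, 0.74 and 0.44 in MM.1S cells, with intervals above 0, and -0.32, -0.53 and 0.10 in HS-5 cells, with intervals that held 0. POLR1B had 21.8 and 37.02 CPM in MM.1S cells and 19.05 and 12.9 CPM in HS-5 cells.

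The core proteins of the box C/D snoRNPs, which guide methylation of ribosomal RNA, were all higher in MM.1S and all lower in HS-5 cells in coculture. NOP56 (chromosome 20, 2652145 to 2658393, plus strand) had the highest log2 ratio of the 40 genes in MM.1S cells. It had 232 CPM in MM.1S monoculture, 831 in MM.1S coculture, 661 in HS-5 monoculture and 381 in HS-5 coculture cells. These levels gave a log2 ratio of 1.83 in MM.1S cells (1.73 to 1.94), at the 95.8th percentile of all genes, and of -0.79 in HS-5 cells (-0.90 to -0.69). NOP58, which pairs with NOP56, had 640 and 1330 CPM in MM.1S cells (1.05) and 748 and 705 CPM in HS-5 cells (-0.08). FBL, the methyltransferase fibrillarin, had 167 and 272 CPM in MM.1S cells (0.70) and 150 and 104 CPM in HS-5 cells (-0.52). Within 1 complex the 3 genes therefore had the same direction and unlike sizes, with NOP56 ahead of FBL by more than their intervals in MM.1S cells.

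Among the box H/ACA snoRNP genes, whose products convert uridine to pseudouridine in ribosomal RNA, NHP2 stood apart from its partners. DKC1, the pseudouridine synthase dyskerin, had 356 and 669 CPM in MM.1S cells (0.91) and 437 and 311 CPM in HS-5 cells (-0.49). GAR1, a small structural protein of the particle, had 77.8 and 168 CPM in MM.1S cells (1.104) and 145 and 112 CPM in HS-5 cells (-0.37). NHP2 (chromosome 5, 178149460 to 178153967, minus strand) had 134 and 104 CPM in MM.1S cells, a log2 ratio of -0.37 (-0.64 to -0.12), and 50.5 and 92.8 CPM in HS-5 cells, a log2 ratio of 0.87 (0.63 to 1.13). That was the highest ratio of the 40 genes in HS-5 cells, at the 97.7th percentile of all genes. NOLC1, a chaperone of snoRNPs, had 393 and 427 CPM in MM.1S cells (0.12, -0.01 to 0.24) and 380 and 332 CPM in HS-5 cells (-0.20, -0.31 to -0.08).

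Nucleolin (NCL, chromosome 2, 231453531 to 231483641, minus strand) and nucleophosmin (NPM1, chromosome 5, 171387116 to 171411137, plus strand) are abundant nucleolar proteins that bind ribosomal precursors. NCL had 974 CPM in MM.1S monoculture (955 to 993), 2222 in MM.1S coculture (2142 to 2304), 3773 in HS-5 monoculture (3725 to 3822) and 2007 in HS-5 coculture cells (1952 to 2064). The 2 lines were far apart in monoculture and near each other in coculture, where MM.1S cells held slightly more. The log2 ratio was 1.19 in MM.1S cells (1.13 to 1.25) and -0.91 in HS-5 cells (-0.95 to -0.87), lower than all but 2.56% of genes. NPM1 had 660 and 1066 CPM in MM.1S cells, a log2 ratio of 0.69 (0.61 to 0.78), and 1254 and 1229 CPM in HS-5 cells, a log2 ratio of -0.03 (-0.09 to 0.03). The counts listed 43 pseudogene copies of NPM1, between which reads can be split. With these added, NPM1 had 780.5 and 1410 CPM in MM.1S cells (0.85) and 1632 and 1679 CPM in HS-5 cells, where the direction turned (0.04). NOP56 had 3 copies in the counts, and its ratio with them was 1.92 in MM.1S and -0.78 in HS-5 cells.

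The 10 genes of small subunit processing, most of them parts of the processome that assembles on the nascent precursor, spread the most in MM.1S cells, from -0.68 to 1.81. UTP20 (chromosome 12, 101280109 to 101386616, plus strand), whose promoter stretch is shown above, had 22.8 CPM in MM.1S monoculture, 82.4 in MM.1S coculture, 94.8 in HS-5 monoculture and 71.5 in HS-5 coculture cells. Its level in MM.1S cells alone lay far under the other 3, and its log2 ratio was 1.81 in MM.1S cells (1.51 to 2.19, 109 UMIs in coculture) and -0.40 in HS-5 cells (-0.66 to -0.16). RRP12, needed for maturation and export of subunits, had 18.0 and 62.0 CPM in MM.1S cells (1.73, 1.39 to 2.16) and 54.5 and 33.4 CPM in HS-5 cells (-0.69, -1.07 to -0.36). NOL6 (1.32) and NAT10 (1.11), the latter an acetyltransferase of ribosomal RNA, were also at least 2-fold higher in MM.1S cells, with ratios of -0.52 (-1.14 to 0.01) and -0.58 (-0.91 to -0.28) in HS-5 cells. WDR43 (0.73) and NOP14 were higher by less, the latter with 51.7 and 81.6 CPM in MM.1S cells (0.65, 0.35 to 0.96) and 109 and 74.7 CPM in HS-5 cells (-0.54, -0.79 to -0.31).

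Other genes of the same subunit did not share this. IMP3 had 136 CPM in MM.1S monoculture, 84.6 in MM.1S coculture, 39.6 in HS-5 monoculture and 41.0 in HS-5 coculture cells. Its log2 ratio was -0.68 in MM.1S cells (-0.98 to -0.41) and 0.05 in HS-5 cells (-0.30 to 0.39). IMP4, which acts with IMP3 in the U3 snoRNP, had 66.7 and 70.3 CPM in MM.1S cells (0.07, -0.25 to 0.39) and 95.7 and 92.4 CPM in HS-5 cells (-0.05, -0.28 to 0.17). UTP4 had 97.4 and 94.4 CPM in MM.1S cells (-0.04, -0.32 to 0.23) and 55.2 and 40.6 CPM in HS-5 cells (-0.43, -0.78 to -0.12). RRP9, a protein of the U3 snoRNP, had 38.4 and 36.3 CPM in MM.1S cells (-0.08, -0.55 to 0.35) and 20.7 and 18.9 CPM in HS-5 cells (-0.12, -0.65 to 0.36). For IMP4 and RRP9 a difference was not detectable at this depth in either line.

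All 14 genes of large subunit processing were higher in MM.1S cells in coculture, by 0.07 to 1.52, where 62.0% of all genes were. In HS-5 cells 11 of them were lower and 3 higher, where 46.8% of all genes were higher. PPAN had 19.6 CPM in MM.1S monoculture, 58.2 in MM.1S coculture, 53.4 in HS-5 monoculture and 35.0 in HS-5 coculture cells. Its log2 ratio was 1.52 in MM.1S cells (1.17 to 1.95, 77 UMIs in coculture) and -0.60 in HS-5 cells (-0.97 to -0.27). DDX21 (chromosome 10, 68956128 to 68985073, plus strand), an RNA helicase of the nucleolus, had 254 and 675 CPM in MM.1S cells (1.40, 1.30 to 1.52) and 1050 and 563 CPM in HS-5 cells (-0.90, -0.98 to -0.82). PES1 (1.17), RRP1B (1.06) and MRTO4 (1.01) were also at least 2-fold higher in MM.1S cells, and NOP16 was just short of it. NOP16 had 165 and 320 CPM in MM.1S cells (0.95, 0.80 to 1.11) and 128 and 140 CPM in HS-5 cells (0.13, -0.05 to 0.32). DDX18, an RNA helicase, had 293 and 410 CPM in MM.1S cells (0.48, 0.35 to 0.62) and 341 and 373 CPM in HS-5 cells (0.13, 0.02 to 0.24). EBNA1BP2 (0.84), NIP7 (0.54), RRS1 (0.35), GNL3 (0.16) and the methyltransferase NOP2 (0.07) followed.

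PES1, BOP1 and WDR12 form 1 complex in large subunit maturation, and their transcripts did not move alike. PES1 had 43.3 and 99.0 CPM in MM.1S cells (1.17, 0.90 to 1.48) and 65.9 and 56.3 CPM in HS-5 cells (-0.23, -0.52 to 0.05). BOP1 (chromosome 8, 144262102 to 144291370, minus strand) had 45.5 and 57.4 CPM in MM.1S cells (0.33, -0.03 to 0.69) and 61.1 and 26.9 CPM in HS-5 cells (-1.15, -1.58 to -0.80). The latter was the lowest ratio of the 40 genes in HS-5 cells and rested on 67 UMIs in coculture. WDR12 had 86.6 and 104 CPM in MM.1S cells (0.27, -0.00046 to 0.53) and 102 and 108 CPM in HS-5 cells (0.08, -0.13 to 0.29). RRS1 had 56.1 and 71.8 CPM in MM.1S cells and 36.3 and 17.7 CPM in HS-5 cells, where its log2 ratio of -0.998 (-1.54 to -0.57) was just inside the 2-fold limit.

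Transcript length, ribosomal protein share and depth moved with these ratios, and their part in the result was not tested beyond the values given here. Over all genes with a length, Spearman's rho between the longest annotated transcript and the log2 ratio was 0.28 in MM.1S cells (7724 genes) and -0.27 in HS-5 cells (8702 genes), and over the 40 genes it was 0.24 and -0.19. Genes share libraries and are not independent replicates. After removal of the length trend, the 40 genes had a median of 0.43 in MM.1S cells and -0.27 in HS-5 cells. With ribosomal protein and mitochondrial genes left out of the CPM, the median of the 40 genes was 0.54 in MM.1S cells and that of all genes 0.08. Subtraction of the other line's free RNA left the medians at 0.73 and -0.35, and removal of shared barcodes left them at 0.72 and -0.36.

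Cells were also ordered by UMIs within each group and cut into 4 bins of near equal size. The bins are not matched in depth between cultures, since those of MM.1S cells ran from 638 to 65136 UMIs in monoculture and from 265 to 5831 UMIs in coculture, and the 3 shallower coculture bins ended at 962. The 4 bins of MM.1S monoculture cells had between 6974 and 8651 CPM of the 40 genes, and the 4 bins of MM.1S coculture cells between 12330 and 13455 CPM. MYC had 718 to 816 CPM in the former and 269 to 407 CPM in the latter. In HS-5 cells the level fell from the shallowest to the deepest bin, from 14736 to 11007 CPM in monoculture and from 9691 to 8308 CPM in coculture, and the 2 ranges did not overlap either. MYC in HS-5 cells was the exception. It had 69.1, 69.0, 73.4 and 121 CPM from the shallowest to the deepest bin in monoculture and 179, 154, 156 and 102 CPM in coculture, so that it was higher in coculture in the first 3 bins and lower in the deepest. The deepest bin of HS-5 cells ran from 1687 to 24811 UMIs in monoculture and from 1471 to 10279 UMIs in coculture. Thinning each cell to a fixed number of UMIs, as below, equalizes the UMIs counted per cell. It does not match the cells themselves, which still come from groups of unlike depth.

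**Figure D3:**
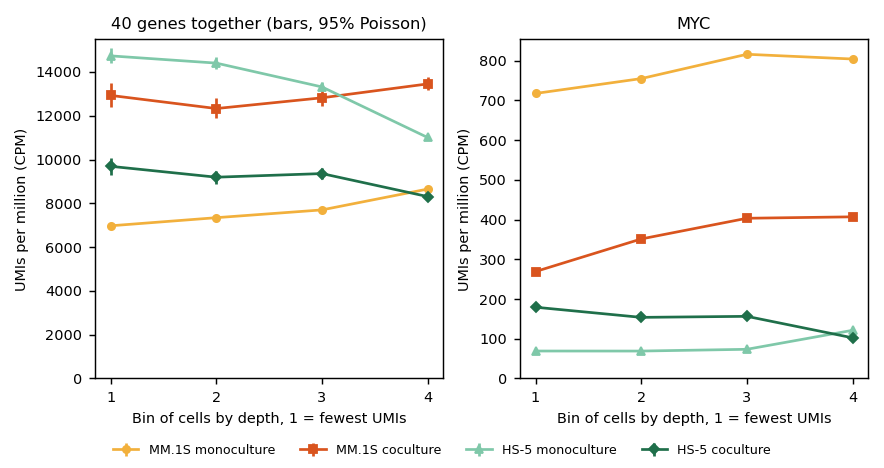
Level in CPM of the 40 genes together (left, with exact 95% Poisson intervals) and of MYC (right, no intervals drawn) in 4 bins of the cells of each group, from the fewest (1) to the most UMIs per cell (4), which differ in depth between groups. The MM.1S coculture cells lie at 12330 to 13455 CPM and the MM.1S monoculture cells at 6974 to 8651 CPM, while the MYC lines of HS-5 cells cross between bins 3 and 4.

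In single cells the difference was a shift of the whole distribution. With each cell thinned to 500 UMIs, MM.1S cells held a mean of 3.84 UMIs of the 40 genes in monoculture (SD 2.19 over 3947 cells) and 6.45 in coculture (SD 3.004 over 1193 cells, 441 shallower cells left out). HS-5 cells held 6.83 (SD 3.32 over 3515 cells, 217 left out) and 4.53 (SD 2.56 over 1809 cells, 300 left out). Cells of 1 library are not replicates, and these SDs describe cells. MM.1S cells with no UMI of the 40 genes made up 3.24% in monoculture and 0.838% in coculture, and HS-5 cells with none made up 0.541% and 1.55%. At 1000 UMIs the means were 7.64 and 13.5 in MM.1S cells, where only 378 coculture cells were deep enough.

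**Figure D4:**
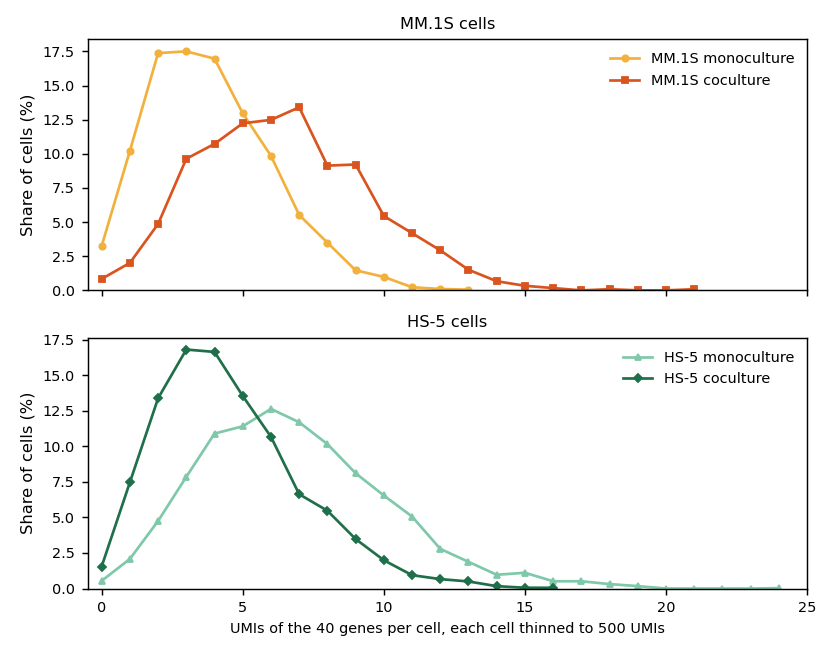
Share of cells (vertical axis, percent) by the number of UMIs of the 40 genes in a cell after thinning each cell to 500 UMIs (horizontal axis), for MM.1S cells above and HS-5 cells below. The coculture curve is shifted right of the monoculture curve in MM.1S cells (means 6.45 and 3.84) and left of it in HS-5 cells (4.53 and 6.83).

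The share of cells with a MYC UMI at 500 UMIs was 30.5% in MM.1S monoculture (29.02 to 31.92%, exact Clopper-Pearson, counting error only) and 16.5% in MM.1S coculture cells (14.4 to 18.7%). It was 4.15% in HS-5 monoculture (3.52 to 4.87%) and 6.69% in HS-5 coculture cells (5.58 to 7.94%). Before thinning the shares were 72.9%, 22.7%, 12.2% and 12.8%. No other cell type that lacks MYC was in the libraries to set a background from free RNA. For NCL the thinned shares were 36.1% and 62.1% in MM.1S cells and 85.8% and 61.6% in HS-5 cells, and for NOP56 they were 9.98% and 31.7% against 31.3% and 18.4%. MM.1S cells with a MYC UMI held a mean of 3.59 UMIs of the other 39 genes in monoculture (3.49 to 3.70), against 3.39 in those without (3.32 to 3.45). In coculture these means were 6.61 (6.26 to 6.98) and 6.20 (6.04 to 6.35), with overlapping intervals. Thinned to 1000 UMIs, the means were 7.11 (6.99 to 7.23) and 6.67 (6.56 to 6.78) in monoculture. In coculture they were 13.2 (12.5 to 13.9) and 13.0 (12.6 to 13.5), again with overlap. A cell without a MYC UMI at 500 UMIs may still hold MYC, since 72.9% of MM.1S monoculture cells had one before thinning. The split therefore cannot be weighed against the difference between the cultures. In HS-5 cells the means with and without a MYC UMI were 6.70 and 6.79 in monoculture and 4.53 and 4.45 in coculture, with overlapping intervals. At 1000 UMIs this held for HS-5 monoculture cells (12.4 in both) and not for HS-5 coculture cells, where the mean was 9.89 in 117 cells with a MYC UMI (9.33 to 10.48) and 8.66 in 886 cells without (8.47 to 8.86).

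MM.1S monoculture cells with at least 1 UMI of a list of 24 proliferation genes held 3.91 UMIs of the other genes (3.82 to 4.00), and those without held 3.07 (2.997 to 3.145). In MM.1S coculture cells these means were 6.59 (6.41 to 6.78) and 5.72 (5.50 to 5.95). The coculture cells without a proliferation UMI held more than the monoculture cells with one. A cell without such a UMI at this depth may still hold these transcripts. In HS-5 monoculture cells the order was the reverse, with 6.71 (6.62 to 6.81) against 7.25 (7.01 to 7.49), and in HS-5 coculture cells the means of 4.45 and 4.49 had overlapping intervals. At 1000 UMIs the intervals overlapped in HS-5 monoculture cells too, with 12.34 (12.17 to 12.50) against 12.89 (12.09 to 13.73).

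Grown alone, the lines differed in which of the 40 genes they held more of. HS-5 cells were higher for 26 of the 40 genes and lower for 14, which is near the 66.0% of all 8734 genes that were higher. The median log2 ratio of HS-5 over MM.1S was 0.36. It lies under the 0.56 of all genes, so that 25 of the 40 were below that median. At least 2-fold higher in HS-5 cells were 9 genes (22.5%), fewer than the 38.1% of all genes, and at least 2-fold lower were 4 (10%), against 15.3%. The 5 highest ratios were those of DDX21 (2.04), UTP20 (2.01), NCL (1.95), RRP12 (1.55) and NOP56 (1.50), and their intervals held neither 0 nor 1. This comparison and that of the MM.1S cultures share the MM.1S monoculture library. The 4 at least 2-fold lower were MYC (-2.95, -3.08 to -2.84), IMP3 (-1.76, -1.99 to -1.59), NHP2 (-1.39, -1.59 to -1.23) and GNL3 (-1.31, -1.38 to -1.24), and the next was RRP9 (-0.86, -1.19 to -0.60). GNL3, the nucleolar GTPase nucleostemin, had 778 and 870 CPM in MM.1S cells and 314 and 278 CPM in HS-5 cells. With the length trend removed this median turned to -0.16, and the line and the library cannot be told apart in this comparison.

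Within the coculture library, where both lines were prepared together, most of the 40 genes were lower in HS-5 cells. The median had the other sign than between the monocultures in CPM, though not where the monoculture median was centred on all genes (-0.21) or had its length trend removed. HS-5 cells were lower than MM.1S cells for 36 of the 40 genes, whereas 56.1% of all 8888 genes were higher in HS-5 cells. The median log2 ratio was -0.79, against 0.17 for all genes. None was at least 2-fold higher in HS-5 cells, where 26.1% of all genes were, and 13 were at least 2-fold lower (32.5%), where 15.8% were. Over 16 alternatives 8 to 19 genes were at least 2-fold lower and 0 higher, and the median lay between -0.97 and -0.65. The 8 came from a minimum of 50 CPM (8 of 30 genes, 15.1% of all genes) and the 19 from centring on all genes (19.4% of all genes). The lowest were RRS1 (-1.96, -2.57 to -1.49), GNL3 (-1.64, -1.78 to -1.51), MYC (-1.51, -1.73 to -1.32), POLR1B (-1.46, -2.22 to -0.85) and FBL (-1.38, -1.63 to -1.16). The highest were IMP4 (0.39, 0.04 to 0.76), NPM1 (0.21, 0.11 to 0.30), MAX (0.20), WDR12 (0.05) and NOP14 (-0.12), the last 3 with intervals that held 0. The distance between the lines, as the median absolute log2 ratio, was 0.70 over the 40 genes in monoculture and 0.79 in coculture, with 19 genes closer and 21 farther. Over 8315 genes it was 1.08 and 0.80, with 62.2% closer, and over 77 cytosolic ribosomal protein genes it was 1.25 and 0.44, with 66 closer.

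Genes with and without the motif overlapped widely in MM.1S cells. The 16 genes with CACGTG in a window had a median log2 ratio of 0.79 in coculture, and the 15 without it had 0.69, with ranges from -0.08 to 1.81 and from -0.68 to 1.83. At least 2-fold higher were 7 of the 16 and 3 of the 15, where 18.9% of all genes were. In HS-5 cells the medians were -0.42 and -0.07. All 16 genes with the motif were lower in HS-5 coculture cells, and 6 of the 15 without it were higher, where 46.8% of all genes were higher. These values are a description over few genes.

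Other genes of the same pathways were taken from lists written from general knowledge, with earlier results of these data known. Of 70 other ribosome assembly genes that passed the minimum level, 62 were higher in MM.1S cells in coculture (median 0.63), with 18 at least 2-fold higher (25.7%, against 18.9% of all genes), and 59 were lower in HS-5 cells (median -0.31). Of all genes, 62.0% were higher in MM.1S cells and 46.8% in HS-5 cells. In MM.1S cells the highest were PWP2 (7.48 and 32.5 CPM, 1.98) and RRP36 (11.02 and 43.8 CPM, 1.898), and the lowest NOC4L (-0.54) and NOP53 (-0.47). In HS-5 cells NOP10 (506.5 and 991 CPM, 0.97), which partners NHP2 in the box H/ACA snoRNP, and SBDS (0.42) were highest, and NOC4L (-1.06) and RRP15 (-0.98) lowest. This list had the same directions as the 40 genes in both lines. It is not independent support, because it was chosen with earlier results of the same libraries known.

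Other subunits and cofactors of RNA polymerase I had medians of 0.52 in MM.1S (11 of 15 higher) and 0.01 in HS-5 cells (7 of 13 higher). Of all genes, 62.0% and 46.8% were higher in these lines. At least 2-fold higher in MM.1S cells were 2 of the 15 (13.3%), fewer than the 18.9% of all genes. CD3EAP (1.37) and the initiation factor RRN3 (1.36) were highest in MM.1S cells, and POLR2E (-0.28) and POLR2L (-0.14), which other RNA polymerases share, were lowest. In HS-5 cells POLR2K (0.73) and TAF1A (0.44) were highest and TAF1B (-0.52) and TAF1D (-0.47) lowest. Partners and regulators of the MYC network had medians of 0.70 in MM.1S (11 of 13 higher, against 62.0% of all genes) and -0.33 in HS-5 cells (3 of 13 higher, against 46.8%). FBXW7 (13.9 and 43.8 CPM, 1.59), a ubiquitin ligase subunit that marks MYC for degradation, and WDR5 (1.22) were highest in MM.1S cells, and MYCBP (-0.45) and the MYC antagonist MXD1 (-0.29) lowest. In HS-5 cells MXI1 (0.63) and RUVBL2 (0.26) were highest and MGA (-0.74) and MXD4 (-0.67) lowest.

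Known MYC targets in metabolism had medians of 0.65 in MM.1S (15 of 20 higher, where 62.0% of all genes were, and 6 at least 2-fold higher, where 18.9% were) and -0.03 in HS-5 cells (8 of 20 higher, where 46.8% of all genes were). ODC1, the first enzyme of polyamine synthesis, had 65.5 and 537 CPM in MM.1S cells, a log2 ratio of 3.02 (2.88 to 3.19), and SRM, which makes spermidine, had 81.5 and 345 CPM (2.07, 1.92 to 2.25). GART (-0.29) and IMPDH2 (-0.19), enzymes of purine synthesis, were lowest in MM.1S cells. In HS-5 cells HSPE1 (531 and 1049 CPM, 0.98) and PTMA (0.50) were highest, and CTPS1 (-0.37) and SHMT2 (-0.35) lowest.

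Cytosolic ribosomal protein genes went the other way from the assembly genes in both lines. In MM.1S cells 63 of 78 were lower in coculture (median -0.62, 17 at least 2-fold lower, or 21.8%, where 5.80% of all genes were), and in HS-5 cells 52 of 77 were higher (median 0.20), where 46.8% of all genes were. RPL10 (-2.97) and RPS27 (-2.87) were lowest and RPL9 (1.75) and RPS10 (1.30) highest in MM.1S cells, and in HS-5 cells RPS19 (0.89) and RPS15 (0.74) were highest and RPS25 (-0.79) and RPS12 (-0.49) lowest. Reads of these genes can also match their many processed pseudogenes, which leaves single ratios uncertain. The 24 proliferation genes had medians of 0.34 in MM.1S (17 higher, where 62.0% of all genes were) and 0.10 in HS-5 cells (16 higher, where 46.8% were). MKI67 was higher in MM.1S (40.4 and 83.9 CPM, 1.03) and lower in HS-5 coculture cells (791 and 491 CPM, -0.69). RRM2 (1.05) was the highest and CCNB2 (-1.23) and PLK1 (-0.66) were the lowest in MM.1S cells, while CCNB2 (0.56) and MCM2 (0.51) were the highest and CENPF (-1.16) the lowest in HS-5 cells.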

How the data were processed

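Single-cell suspensions of MM.1S, HS-5 and cocultured cells were processed by Drop-seq in 1 library each. The authors deposited raw UMI counts, as whole numbers for every gene and barcode. The submitters' processing notes name Cell Ranger 3.0.2, UMI-tools 1.0.0, STAR 2.5.3a, featureCounts 1.6.4, SAMtools 1.9 and GRCh38, and the methods name Seurat for the authors' analyses.

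The 40 genes and all lists were chosen with earlier results of these data known, and all 40 are named, with levels in each group for MYC, MAX, NPM1, NCL and the 5 highest and 5 lowest ratios per comparison. For the other lists the 2 highest and 2 lowest are named. The symbols POLR2F and EIF4A1 were not analysed here. Cells with at least 200 genes were kept. A coculture cell was taken as MM.1S where the HS-5 share of its line-specific UMIs was under 0.2 and as HS-5 where it was over 0.8, with at least 3 such UMIs. Line-specific genes had at least 20 CPM in their own line. UMIs were summed per line and library, since cells are not replicates. Genes averaging 10 CPM or more in the groups compared entered medians and counts. No doublet caller was run, and mixed cells stood in for doublets. With no replicate libraries, no p-value was computed. Loci and transcript lengths are from GENCODE release 29. The steps were tested on simulated data. The tools were numpy 2.4.6, scipy 1.17.1, pandas 2.3.3 and matplotlib 3.10.9. Alternatives were other limits on cells, scalings, pseudocounts, minimum levels, limits of the line split, subtraction of free RNA, thinning, and removal of the length trend. Removal of shared barcodes and the comparison of lines within the coculture library were chosen after seeing the data.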

Additional observations from a re-analysis of the deposited data

Results flagged for a closer look

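These results went in opposite directions in the 2 lines, with at least 1 line past 2-fold for the single genes. The interval of 1 line held 0 for NOL6 and PES1 in HS-5 cells and for BOP1 in MM.1S cells, so that the direction in that line lay within counting error. The differences were not tested, since there is 1 library for each condition. How many of all genes met the same rule was not counted. The median log2 ratio of coculture over monoculture over the 40 genes exceeded that of HS-5 cells in MM.1S cells by 1.06. MYC alone of these 15 genes had the lower ratio in MM.1S cells, with a difference of -1.43. Of the snoRNP proteins, the difference of the log2 ratios was 2.63 for NOP56, 1.14 for NOP58 and 1.48 for GAR1. It was 2.10 for NCL. Of the small subunit factors, it was 2.21 for UTP20, 1.84 for NOL6, 2.42 for RRP12 and 1.69 for NAT10. Of the large subunit factors, it was 1.48 for BOP1, 1.40 for PES1, 1.34 for RRP1B, 2.12 for PPAN, 1.55 for MRTO4 and 2.30 for DDX21.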

How the results depend on the processing

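No paired analysis was possible because the labels give 1 library per condition, and no library could be left out. The 14 genes called at least 2-fold apart in MM.1S cells, the 1 in HS-5 cells and the 13 in each comparison of the lines had the same sign under every alternative run. Of 184 alternative values of the main results, 146 stayed within their limits, 36 moved and 2 reversed. In MM.1S cells, a minimum of 500 genes per cell left 0 genes at least 2-fold lower (6.39% of all genes). Without ribosomal protein and mitochondrial genes in the CPM, 8 were at least 2-fold higher (15.1% of all genes) and MYC had -1.23. Centred on the median of all genes, the median was 0.48, 6 were at least 2-fold higher (13.0% of all genes) and MYC had -1.29. With the length trend removed the median was 0.43. In HS-5 cells, 1.19% of all genes were at least 2-fold higher and 1.78% lower in the main run. Keeping cells with 200 to 2500 genes and less than 5% of UMIs on mitochondrial genes gave 1 higher and 5 lower (3.96% and 3.78% of all genes). Equal weight per cell gave 1 and 4 (4.43% and 3.56% of all genes), with MYC at 0.84. Thinning to 500 UMIs gave 1 and 4 (5.68% and 5.27% of all genes), with MYC at 0.76. A pseudocount of 0.5, share limits of 0.1 and 0.9, line genes 20-fold different, subtraction of free RNA, removal of the length trend and removal of shared barcodes gave 2 lower each (1.71% to 1.93% of all genes). A minimum of 50 CPM gave 0 (1.38% of all genes). For HS-5 against MM.1S monoculture, the median reversed to -0.21 when centred, with 3 higher, 8 lower (25.7% and 24.7% of all genes) and MYC at -3.51. It reversed to -0.16 with the length trend removed, with 5 higher, 7 lower (24.0% and 23.7% of all genes) and MYC at -3.23. Without ribosomal protein and mitochondrial genes it was 0.085, with 7 lower (19.3% of all genes) and MYC at -3.22. Equal weight per cell gave 0.46 and -3.20 for MYC, and thinning gave -3.17 for MYC. Per 1000 UMIs, cells thinned to 1000 rather than 500 UMIs held 13.5 rather than 12.9 UMIs of the 40 genes in MM.1S coculture and 12.5 rather than 13.7 in HS-5 monoculture cells. The cause of these changes was not tested.

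The depth of the MM.1S coculture cells limits the genes at low levels, such as POLR1A with 34 UMIs. Intervals cover counting error and not the spread between cultures, which was not measured. The media of the coculture library and whether its cells carried a tagged p65 were not given in the sources used here.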
